A study of Rattus norvegicus with 8 samples.

Results

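Glycogen is the branched glucose store of the liver, and the genes described here encode the liver enzymes that build it and break it down, with the proteins that switch them on and off. A probe set, the group of array probes that reports on 1 transcript, was taken where the platform annotation gave it exactly 1 gene symbol and that symbol was 1 of 8: Gys2, Pygl, Ugp2, Gbe1, Ppp1r3b, Ppp1r3c, Phka2 and Phkg2. This gave 8 probe sets for 7 of the 8 genes, of 31042 probe sets and 14217 named genes in all. Ppp1r3b had 2 probe sets, called the brighter and the dimmer here by their mean signal, and the other 6 genes had 1 each. Ppp1r3c, a glycogen-targeting subunit of protein phosphatase 1, matched none, so its expression was not analysed here.

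The livers came from male Sprague-Dawley rats, an outbred strain, at 7 weeks of age, with 1 array per liver. Rats in 1 group received an AIN93G-based diet from which the ferric citrate had been left out, and 4 arrays came from that group. Rats in the other group received the same diet with its iron, and 4 arrays came from it. All rats were on a feeding window in the daytime and were killed on day 17 after 1.5 h of feeding, when hemoglobin on the iron-deficient diet was 42% of that on the control diet. Of the 7 iron-deficient and 6 control rats, it is not stated which gave the arrays.

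In the liver, glucose is phosphorylated and converted to glucose 1-phosphate, from which Ugp2, the UDP-glucose pyrophosphorylase, makes UDP-glucose. Gys2, the liver glycogen synthase, joins it to the growing chain, and Gbe1, the branching enzyme, adds the branch points. Pygl, the liver glycogen phosphorylase, releases glucose 1-phosphate from the chain ends. Pygl is switched on by phosphorylase kinase, of which Phka2 is the liver regulatory alpha subunit and Phkg2 the catalytic gamma subunit of liver and testis. Protein phosphatase 1 reverses this, and Ppp1r3b brings it to glycogen, where it switches synthase on and phosphorylase off. Much of this control acts on the proteins through phosphorylation, which RNA arrays do not measure.

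To show the sequence at the start of the genes for the enzymes that extend, branch and cut the chain, 3 promoters are printed from RefSeq (build GRCr8), each as the 250 bases before the transcript start that the RefSeq table uses, 5′ to 3′ on the gene's strand. That start can lie inside the annotated bounds of the gene: 82 of the 250 bases of Gbe1 do, and none of those of Gys2 and Pygl. Capitals mark the core letters of the hypoxia response element, ACGTG or GCGTG, on either strand, which were looked for because anemia lowers the oxygen that blood carries.
Gys2 (GRCr8 chr4:177137237-177137486, minus strand): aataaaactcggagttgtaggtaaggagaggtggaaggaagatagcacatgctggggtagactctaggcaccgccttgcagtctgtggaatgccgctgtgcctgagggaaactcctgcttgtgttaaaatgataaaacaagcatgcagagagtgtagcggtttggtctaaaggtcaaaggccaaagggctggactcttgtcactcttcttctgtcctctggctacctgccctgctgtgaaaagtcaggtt
Gbe1 (GRCr8 chr11:22181026-22181275, plus strand): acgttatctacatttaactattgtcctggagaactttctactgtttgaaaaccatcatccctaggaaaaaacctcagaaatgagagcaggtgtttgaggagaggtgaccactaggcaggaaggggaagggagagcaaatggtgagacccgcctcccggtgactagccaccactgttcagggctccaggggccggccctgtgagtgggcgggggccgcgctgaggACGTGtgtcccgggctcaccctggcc
Pygl (GRCr8 chr6:94476220-94476469, minus strand): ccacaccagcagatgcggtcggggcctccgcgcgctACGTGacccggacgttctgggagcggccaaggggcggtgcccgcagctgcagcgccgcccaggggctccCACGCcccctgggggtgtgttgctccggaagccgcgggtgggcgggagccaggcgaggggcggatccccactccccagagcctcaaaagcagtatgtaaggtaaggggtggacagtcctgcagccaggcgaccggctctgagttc
Gys2 held no match, Gbe1 held 1, which begins 26 bases before that transcript start and inside the annotated bounds of the gene, and Pygl held 2, at 214 and 145 bases before its own. RefSeq promoters were listed for 7 of the 8 genes, 4 of them partly or wholly inside the bounds of the gene, and 6 of the 7 held at least 1 match, as did 36.7% of 33469 promoters of the same length. Ppp1r3c alone held the E-box CACGTG, which contains ACGTG on both strands and was present in 5.59% of all promoters. The letters TGACG, the core of the cAMP response element, occurred in 18.2% of all promoters and GTAAACA, a forkhead site, in 3.22%, and neither was found in the windows of the 7 genes. The shares over all promoters were matched for length but not for the content of G and C letters. That content was 49.6% in the Gys2 window and ran from 56.4% to 71.2% in the 6 with a hypoxia core match. A match is a description of the letters and not evidence of binding.

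No glycogen probe set passed the threshold between the diets. None of the 8 passed a limma adjusted p of 0.05, against 0.0322% of all probe sets. In the deposited values 3 had the higher mean in iron-deficient livers and 5 the lower, against 50.4% lower of all probe sets. Under quantile normalization 7 of these 8 signs turned. When that step was run without the probe set of Hamp, the hepcidin gene, 2 signs turned and 3 differences were 0. Those 3, Ugp2, Gbe1 and the brighter Ppp1r3b probe set, held 1 rank in each group, so their quantile values follow from rank alone. Only Gbe1, 1 of the 8 probe sets, had an unadjusted p under 0.05 in limma, while 11.4% of all probe sets did so. Between the groups, 0 of the 8 were free of overlap, against 6.48% of all probe sets. Read against these shares, neither count stood apart. The median difference in units of the within-group SD, called the standardised difference below, was -0.513 over the 8 and -0.0105 over all probe sets. A missing call does not show that the diets were equal for these genes.

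The deposited log2 values of a probe set hardly vary between arrays, and some probe sets are far more compressed than others, so a difference on this scale is not a fold change. The within-group SD had a median of 7.82 millionths of a log2 unit over all probe sets, with a 5th percentile of 0.851 and a 95th of 354. Values of single arrays are therefore given in millionths of a log2 unit above or below the mean of that probe set over the 8 arrays, for replicates 1 to 4 in order. Sizes are not compared between probe sets, except to show which genes weigh most in the means of marker lists. With 4 arrays in each group, their number limits the precision. In whole liver, fewer cells of a type and less RNA per cell cannot be told apart.

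**Figure D1:**
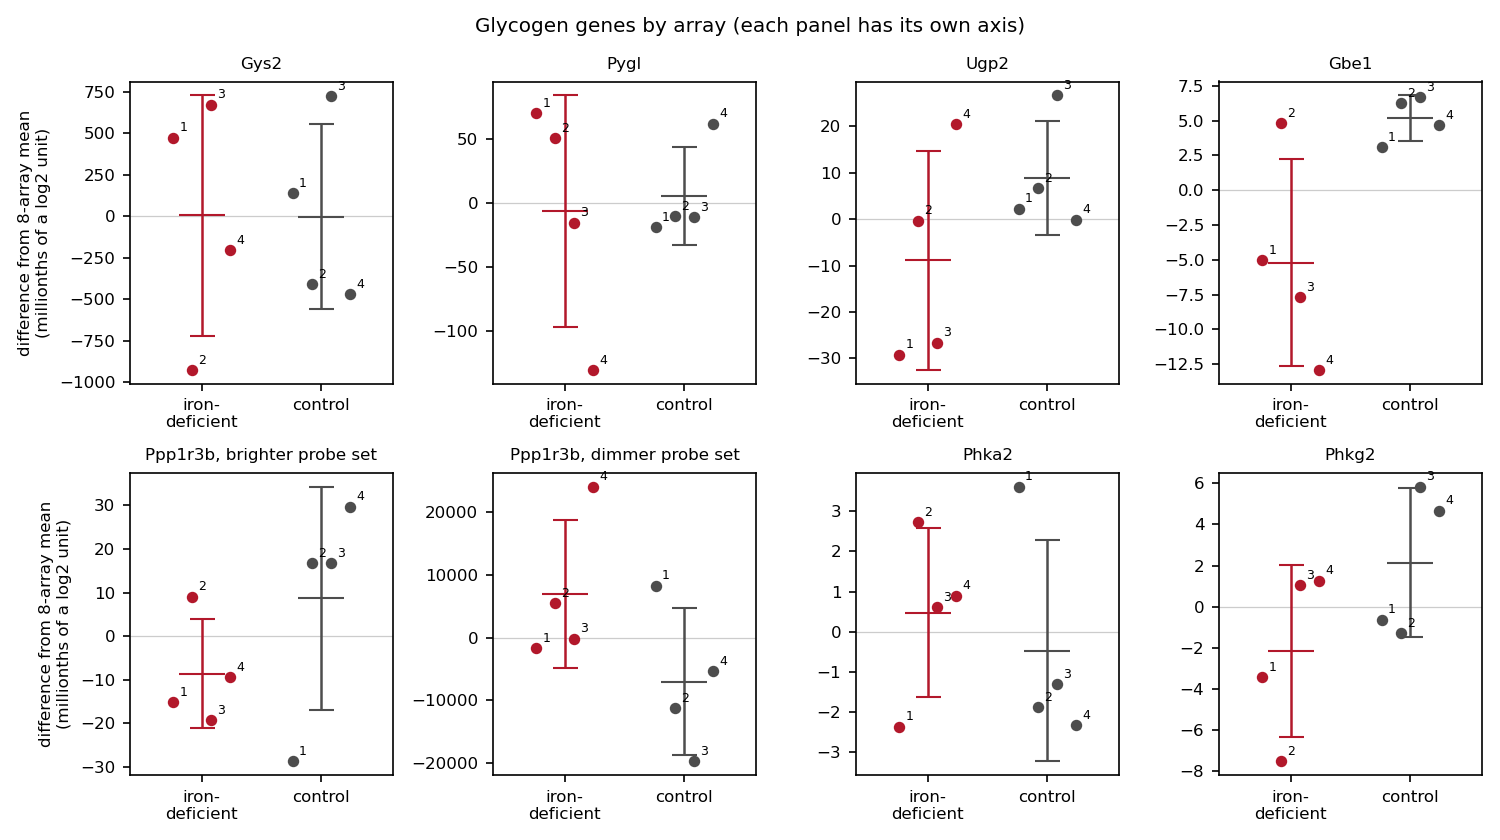
Each panel shows 1 glycogen probe set, with the 4 iron-deficient arrays in red on the left and the 4 control arrays in grey on the right, numbered by replicate. The vertical axis is the difference from the mean of the 8 arrays in millionths of a log2 unit and differs between panels, crossbars are group means and whiskers are SDs. All 8 panels show groups that overlap, and in those of Ugp2 and Gbe1 3 of 4 iron-deficient arrays lie below every control.

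Gys2, the synthase, showed nearly the same mean on both diets. Its mean level was 10.79 on the log2 scale in iron-deficient and in control livers. Single arrays read 474, -926, 673 and -204 millionths in iron-deficient livers, against 138, -408, 724 and -471 millionths in control livers. In each group, 2 arrays were high and 2 low, and the groups lay on top of each other. The difference was 8.41 ± 437 millionths (SE, n = 4 per group), with a 95% interval from -1039 to 1056 and a limma adjusted p of 0.997.

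Ugp2, which supplies UDP-glucose, had a mean level of 13.16 on the log2 scale on both diets. Single arrays read -29.2, -0.326, -26.6 and 20.5 millionths in iron-deficient livers, against 2.26, 6.72, 26.7 and -0.116 millionths in control livers. Below every control lay 3 iron-deficient arrays, and the other, replicate 4, lay above all controls but 1. The difference was -17.8 ± 12.7 millionths (SE, n = 4 per group), with a 95% interval from -48.3 to 12.7 and a limma adjusted p of 0.662.

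Gbe1, the branching enzyme, gave the lowest p of the 8. Its mean level was 12.76 on the log2 scale on both diets. Single arrays read -5.03, 4.81, -7.68 and -12.9 millionths in iron-deficient livers, against 3.12, 6.28, 6.69 and 4.68 millionths in control livers. All 4 iron-deficient arrays lay below the control median and 3 lay below every control, while replicate 2 lay among the controls. The iron-deficient livers were also the more variable, with an SD of 7.43 millionths, against 1.63 millionths in control livers. The difference was -10.4 ± 3.70 millionths (SE, n = 4 per group) or -1.93 within-group SDs, with a 95% interval from -19.3 to -1.52. Its limma p was 0.0280 before and 0.379 after adjustment, and the exact permutation test gave a two-sided p of 0.0857, where the smallest p that 4 against 4 allows is 0.0286. Of all probe sets, 92.6% had a smaller absolute t. Under quantile normalization the difference was 4601 millionths, and it was 0 when that step was run without the probe set of Hamp, the hepcidin gene. Gbe1 held 1 rank in all iron-deficient arrays and 1 rank in all control arrays. Both quantile values therefore follow from rank alone and cannot speak to its direction. As Gbe1 did not pass the threshold after adjustment, no direction is given for it.

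Pygl, the phosphorylase, had a mean level of 11.33 on the log2 scale on both diets. Single arrays read 70.3, 51.1, -14.9 and -130 millionths in iron-deficient livers, against -18.4, -10.2, -10.6 and 62.4 millionths in control livers. Iron-deficient replicate 1 was the highest of the 8 arrays and replicate 4 the lowest, with an SD of 90.3 millionths in iron-deficient and 37.9 millionths in control livers. The difference was -11.6 ± 46.8 millionths (SE, n = 4 per group), with a 95% interval from -124 to 101 and a limma adjusted p of 0.961. Its sign depended on single arrays: without iron-deficient replicate 4 it was 29.7 millionths.

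The kinase that switches phosphorylase on showed no difference that passed the test in either subunit. Phka2, the regulatory subunit, had a mean level of 7.17 on the log2 scale on both diets, and single arrays read -2.36, 2.73, 0.615 and 0.900 millionths in iron-deficient livers, against 3.61, -1.88, -1.30 and -2.32 millionths in control livers. Control replicate 1 was the highest of the 8 arrays, and the other 3 controls lay below 3 of the iron-deficient arrays. The Phka2 difference was 0.942 ± 1.80 millionths (SE, n = 4 per group), with a 95% interval from -3.36 to 5.25 and a limma adjusted p of 0.900.

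Phkg2, the catalytic subunit, had a mean level of 9.09 on the log2 scale on both diets. Single arrays read -3.41, -7.51, 1.05 and 1.27 millionths in iron-deficient livers, against -0.631, -1.28, 5.83 and 4.67 millionths in control livers. All 4 iron-deficient arrays lay below the control median, and 2 of them lay below every control. The Phkg2 difference was -4.30 ± 2.73 millionths (SE, n = 4 per group), with a 95% interval from -10.8 to 2.24, a limma adjusted p of 0.619 and a two-sided p of 0.171 in the exact permutation test.

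Ppp1r3b, which recruits the phosphatase to glycogen, was read by 2 probe sets that pointed in opposite ways. On the brighter one, with a mean level of 12.17 on the log2 scale on both diets, single arrays read -15.1, 9.09, -19.2 and -9.36 millionths in iron-deficient livers, against -28.7, 16.8, 16.8 and 29.7 millionths in control livers. The lowest of the 8 arrays was control replicate 1, and the other 3 controls lay above all 4 iron-deficient arrays. The difference was -17.3 ± 13.7 millionths (SE, n = 4 per group), with a 95% interval from -50.0 to 15.4 and a limma adjusted p of 0.701.

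On the dimmer Ppp1r3b probe set the mean level was 7.61 on the log2 scale in iron-deficient and 7.59 in control livers. Single arrays read -1630, 5550, -137 and 24100 millionths in iron-deficient livers, against 8320, -11200, -19700 and -5350 millionths in control livers. All 4 iron-deficient arrays lay above the control median, replicate 4 was the highest of the 8, and control replicate 1 was the second highest. The difference was 13960 ± 7983 millionths (SE, n = 4 per group), with a 95% interval from -5175 to 33090 and a limma adjusted p of 0.573. Across the 8 arrays the pair of probe sets had a Pearson r of -0.552, given as a description with no p. Control replicate 1 stood against the other controls on both. Without that array the brighter gave -29.8 millionths (limma unadjusted p = 0.0103, adjusted p = 0.236) and the dimmer 19060 millionths (limma unadjusted p = 0.0453, adjusted p = 0.355), and neither passed the threshold. The data give no settled direction for Ppp1r3b.

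**Figure D2:**
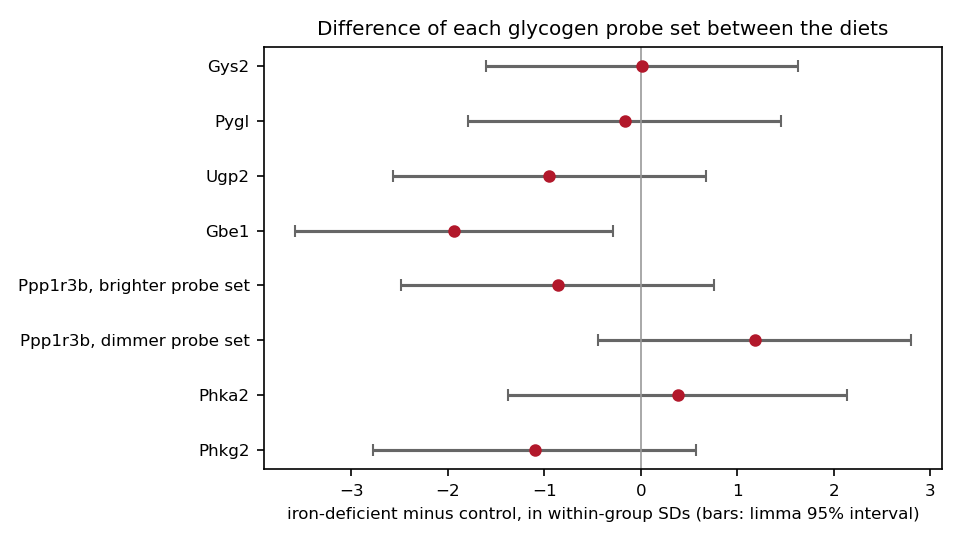
Points are the differences of the 8 glycogen probe sets, iron-deficient minus control, in within-group SDs, and bars are the 95% intervals of limma without adjustment for the number of probe sets. The interval of Gbe1, from -19.3 to -1.52 millionths, is the one that leaves out 0, and the 2 probe sets of Ppp1r3b lie on opposite sides of 0.

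The probe sets did not vary together from liver to liver in any common way. The pair of opposing enzymes, Gys2 and Pygl, had a Pearson r of -0.123 over the 8 arrays, and the 28 pairs among the 8 probe sets ran from -0.689, for Gbe1 with the dimmer Ppp1r3b probe set, to 0.603, for Gbe1 with the brighter one. These are descriptions of 8 arrays that share 2 diets and carry no p. Among 14216 other genes, those most like Gys2 over the 8 arrays were Sult2b1 (Pearson r = 0.944), Lama5 (0.929) and Slc36a1 (0.925). Those most like Pygl were Sapcd1 (0.963), Phtf1 (0.963) and Arpp21 (0.958). These too are descriptions of 8 arrays, and none of the 6 was a glycogen gene of the lists used here.

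No gene in the rest of the pathway passed the threshold either. Of 50 other genes listed for glycogen metabolism and its control, 41 were measured, and 0 passed an adjusted p of 0.05 in limma, against 0.0422% of all genes. At an unadjusted p under 0.05 there were 5 higher and 3 lower, against 5.74% higher and 7.5% lower of all genes, and the groups did not overlap for 4, against 7.82% of all genes. The median standardised difference was -0.0849 over the 41 and -0.0728 over all genes.

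Among the other enzymes of synthesis, 5 of 5 were measured, with Pgm2, a phosphoglucomutase, at 6.24 ± 3.34 millionths (limma adjusted p = 0.545) and Gyg1, the glycogenin that primes the chain, at -5.80 ± 12.9 (0.921). Among breakdown enzymes, 3 of 4 were measured, with Gaa, the lysosomal glucosidase, at -10.7 ± 4.94 millionths (limma adjusted p = 0.480) and Pygb, the brain phosphorylase, at 4.36 ± 4.46 (0.780). Of the other phosphorylase kinase genes, 4 of 6 were measured, with Calm2, a calmodulin that serves as the delta subunit, at 30.9 ± 12.8 millionths (limma adjusted p = 0.435) and Phka1, the muscle alpha subunit, at -7.04 ± 3.00 (0.449). The signs of Pgm2, Gyg1, Gaa and Phka1 turned under both quantile normalizations, and that of Pygb did not. The difference of Calm2 was 0 without the Hamp probe set, which follows from its holding 1 rank in each group. None of these 12 genes passed, and the errors are SEs with 4 livers per group.

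Of 10 listed genes of protein phosphatase 1, the enzyme that Ppp1r3b targets, 8 were measured. Ppp1r2, which encodes inhibitor 2 of the phosphatase, read 12.2, 24.6, 6.06 and 3.71 millionths in iron-deficient livers, against -5.49, -4.99, -23.1 and -13.0 millionths in control livers. Every iron-deficient array lay above every control, and the difference of 23.3 ± 6.06 millionths (SE, n = 4 per group) had a limma adjusted p of 0.260. Ppp1cc, the gamma catalytic subunit, also did not overlap, at 5.20 ± 1.50 millionths (limma adjusted p = 0.295). Its difference was 0 when arrays were quantile-normalized without the Hamp probe set. Ppp1cc held 1 rank in each group, so that value follows from rank alone and does not test the deposited difference.

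Of the kinases that act on glycogen synthase, 8 of 8 were measured. Prkaa1, the alpha 1 catalytic subunit of AMP-activated kinase, read 42.9, 45.8, 78.1 and 4.71 millionths in iron-deficient livers, against -60.9, -6.75, -76.0 and -27.9 millionths in control livers. The groups did not overlap, the difference was 85.8 ± 20.8 millionths (SE, n = 4 per group, limma adjusted p = 0.236), and its sign was negative under both quantile normalizations. Prkar1a, a regulatory subunit of protein kinase A, differed by 18.7 ± 6.20 millionths (limma adjusted p = 0.347), with a negative sign under both as well. Over the 8 kinase genes 3 had the higher mean in iron-deficient livers and 5 the lower. Prkaa2, the alpha 2 catalytic subunit of AMP-activated kinase, chosen after its values were seen, was among the lower, at -163.9 ± 64.1 millionths (SE, n = 4 per group, limma unadjusted p = 0.0398, adjusted p = 0.414), and at 47.0 millionths under quantile normalization and -349.7 without the Hamp probe set.

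At the exit of glucose from the cell, where 3 of 5 genes were measured, Slc37a4 carries glucose 6-phosphate into the endoplasmic reticulum. It read -134, -528, -400 and -32.9 millionths in iron-deficient livers, against 181, 309, 596 and 9.13 millionths in control livers. All 4 iron-deficient arrays lay below every control, and the difference of -547 ± 161 millionths (SE, n = 4 per group) had a limma adjusted p of 0.304. It was 300.3 millionths under quantile normalization and -232 millionths when Hamp was removed first. Slc2a2, the liver glucose transporter, differed by -6.40 ± 7.48 millionths (limma adjusted p = 0.813). It differed by 5630 millionths under quantile normalization and by 0 without the Hamp probe set. As Slc2a2 held 1 rank in each group, these quantile values follow from rank alone. Of 3 glycogen quality genes 2 were measured, Stbd1, which binds glycogen to membranes, at -51.0 ± 54.1 millionths (limma adjusted p = 0.789) and Epm2a, the phosphatase laforin, at -0.832 ± 1.34 (0.877). Of 9 genes of insulin, glucagon and adrenergic signalling 8 were measured, with Akt1, a kinase of insulin signalling, at -37.5 ± 14.9 millionths (limma adjusted p = 0.419) and Gcgr, the glucagon receptor, at -229 ± 115 (0.519). The signs of Epm2a, Akt1 and Gcgr were positive under both quantile normalizations, and that of Stbd1 stayed negative under both.

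**Figure D3:**
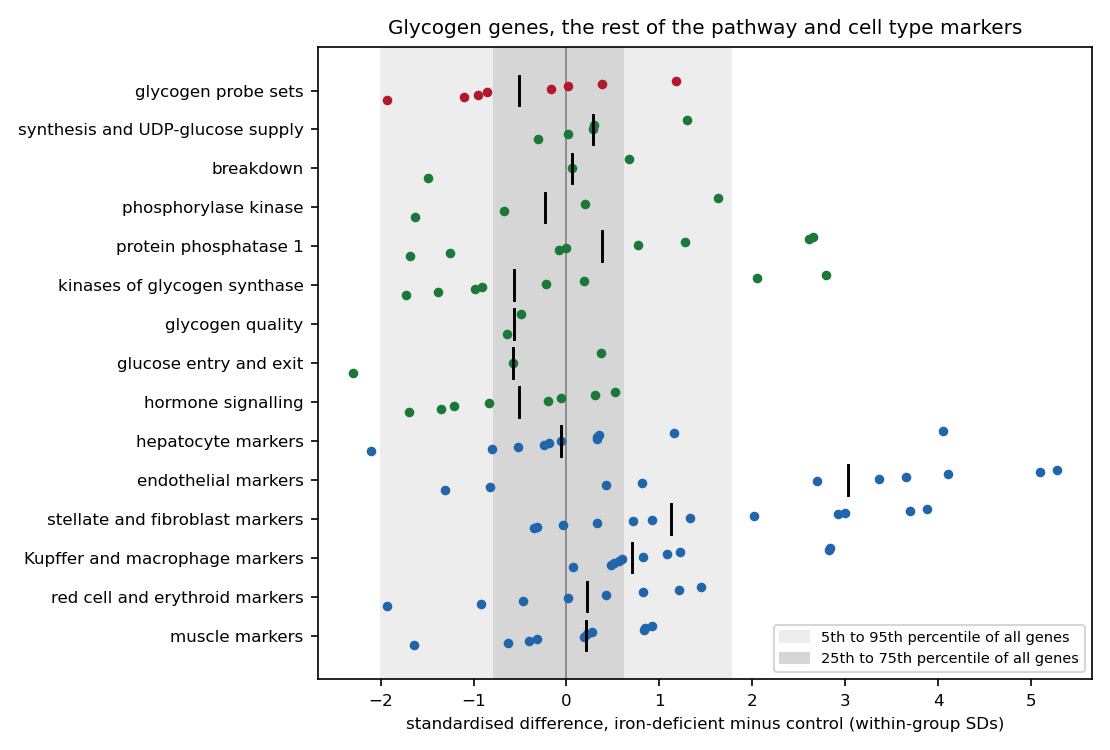
Each point is 1 glycogen probe set (red), 1 gene of the rest of the pathway (green) or 1 cell type marker (blue), placed by its standardised difference, iron-deficient minus control, and black bars are medians. Grey bands hold the middle of all genes, and the 8 glycogen probe sets all lie within the band from the 5th to the 95th percentile.

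The tissue was checked against its markers. Of 12 listed hepatocyte markers 11 were measured, 5 higher and 6 lower, none at an unadjusted p under 0.05 in limma, with a mean level of 13.78 on the log2 scale on every array. At an unadjusted p under 0.05 in limma, some endothelial, stellate and Kupffer cell markers were higher in iron-deficient livers and none lower. These were 6 of 10 endothelial, 5 of 12 stellate and fibroblast and 2 of 10 Kupffer cell markers. Of all genes, 5.74% were higher and 7.5% lower at that level. None of these markers passed an adjusted p of 0.05 in the deposited values. These counts depended on the scaling: under quantile normalization with and without the Hamp probe set they were 5 and 2 endothelial, 3 and 2 stellate and 3 and 1 Kupffer cell markers higher and none lower, and of the hepatocyte markers 10 were higher with it and 0 without it. Calls at an adjusted p under 0.05 in limma depended on it too. Under quantile normalization 10 hepatocyte, 2 endothelial, 1 stellate, 1 Kupffer cell and 1 muscle marker passed, and without the Hamp probe set 1 stellate marker did. Whatever the p, all 10 Kupffer cell markers had the higher mean in iron-deficient livers in the deposited values. Of these 10, 8 had the lower mean when Hamp was removed before quantile normalization. The mean level over the endothelial list was 9.014 on every iron-deficient array and 9.013 on every control array. Over the stellate list it ran from 8.038 to 8.039 on iron-deficient arrays and from 8.037 to 8.038 on control arrays. Over the Kupffer list it was 9.746 on every iron-deficient array and 9.745 on every control array. Of 8 measured red cell and erythroid markers, 1 was lower at an unadjusted p under 0.05 in limma, against 7.5% of all genes. Of 10 muscle markers none differed at that level in the deposited values. A list mean weighs each gene by its size in millionths, and such sizes do not rank the genes. A few genes made up most of the summed difference in the endothelial, stellate and Kupffer lists. The differences of Flt1 (2461 millionths) and Stab2 (2254) exceeded those of the other 8 endothelial genes, which ran from -90.6 to 794 millionths, and Lyz2 (5966) exceeded those of the other 9 Kupffer cell genes, which ran from 1.71 to 166 millionths. In the stellate list Lum (3835), Dcn (2759) and Col3a1 (1991) exceeded those of the other 9, which ran from -8.01 to 448 millionths. In within-group SDs the order differed: Egfl7 (5.28) lay above Flt1 (5.09) and Stab2 (4.105), and Lyz2 (2.84) lay close to Mrc1 (2.82). Lum (1.33), whose groups overlapped, lay below Timp1 (3.88) and Lrat (3.70). The part of these cells in the glycogen values was not tested.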

How the data were processed

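RNA of 8 rat livers was measured on Affymetrix arrays from biotin-labelled cRNA made from 2 ug of total RNA, per the labels. The authors deposited log2 values, as judged from their range of 5.32 to 16.1. Their probe summary and array normalization are not given in the sources used. Array medians lay between 7.1195 and 7.1205.

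Of 31099 probe sets, 57 controls were left out, and limma 3.58.1 (lmFit, then eBayes, R 4.3.3) was run on the other 31042, iron-deficient minus control, without a replicate block, with Benjamini-Hochberg adjustment over all of them at 0.05. By the platform annotation, 20826 had 1 symbol, 436 several and 9780 none, and 20758 of the probe sets with 1 symbol were matched to RefSeq by gene identifier, which changed no symbol. Outside the 8 genes, a gene was its probe set with the highest mean. The rule named every probe set of the 8 genes, per pathway list up to 2 genes with the lowest p, and the 3 genes most correlated with Gys2 and with Pygl. Ppp1cc, Ppp1r2, Prkaa1 and Slc37a4 are also described by array because their groups did not overlap.

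The genes, lists and tests were chosen with earlier results of these data known. The labels call the arrays biological replicates. The scripts were tested on simulated data. Alternatives were quantile normalization with and without the Hamp probe set, a filter on dim probe sets, other variance models, an exact permutation test (scipy 1.17.1), each array left out, a replicate block, and gene means.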

Additional observations from a re-analysis of the deposited data

Results flagged for a closer look

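Pygl in control replicate 4 read 62.4 millionths of a log2 unit above the mean of the 8 arrays, where the other 3 controls read -18.4, -10.2 and -10.6. The gap to the nearest control was 0.899 of the group's range, above Dixon's 95% critical value for 4 samples. Of 16 groups looked at, 2 for each of the 8 probe sets, this was the only 1 flagged, and chance flags about 1 in 20. Without this array the Pygl difference was 7.28 millionths (limma adjusted p = 0.977), against -11.6 with it.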

How the results depend on the processing

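The absence of calls among the 8 glycogen probe sets held under each limma alternative run for them except quantile normalization, which called 3 of them and 3 other pathway genes. These were Ugp2 (5280 millionths), Gbe1 (4601) and the brighter Ppp1r3b probe set (4623), all higher, with Calm2, Ppp1cc and Slc2a2. Each of the 6 held 1 rank in all iron-deficient arrays and 1 rank in all control arrays, so that the within-group SD became 0 but for rounding. With the Hamp probe set, which changes rank between the diets, left out of the normalization, the difference of each was 0. Over all probe sets these normalizations called 1093 (993 higher and 100 lower) and 83 (42 and 41), where 10 (7 and 3) were called in the values as deposited. Quantile normalization also turned Gys2 (-322 millionths), Pygl (114), Phka2 (-55.1) and Phkg2 (221). Without the Hamp probe set it turned Gys2 (-748) and Phka2 (-104), and the count at an unadjusted p under 0.05 in limma was 3 with it and 0 without it. The cause of the turns of Gys2, Pygl, Phka2 and Phkg2 was not tested.

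With each array left out in turn, 0 glycogen probe sets were called by limma, 4 to 27 of all probe sets were, and from 0 to 3 glycogen probe sets had an unadjusted p under 0.05, with 3 without control replicate 1 (Gbe1 and both of Ppp1r3b). Differences ran from -214 to 318 millionths for Gys2 and from -37.0 to 29.7 for Pygl, both across 0. Gys2 turned negative without iron-deficient replicates 1 (-148) and 3 (-214) and control replicates 2 (-126) and 4 (-147), and Pygl turned positive without iron-deficient replicate 4 (29.7) and control replicate 4 (7.28). Gbe1 ran from -13.7 to -7.83, with an adjusted p from 0.193, without iron-deficient replicate 2, to 0.630. Ugp2 ran from -27.6, without iron-deficient replicate 4 (limma unadjusted p = 0.0361, adjusted p = 0.473), to -11.0, Ppp1r3b from -29.8 to -10.3 and from 8238 to 19060, Phka2 from 0.190 to 2.30, and Phkg2 from -5.44 to -2.51.

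By the exact permutation test, 0 of the 8 had p under 0.05, against 1 in limma. The replicate block called 1 of all probe sets and none of the 8, and gave 2 unadjusted p under 0.05, Gbe1 and Phkg2. The labels give nothing that ties a replicate number of 1 group to that of the other. Deviations of same-numbered livers had correlations of -0.111, 0.0245, -0.0251 and -0.0773, which cannot show that no pairing exists.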

Other observations

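In the rest of the pathway 15 genes had more than 1 probe set, 41 in all, and these can be set side by side by sign. In the deposited values all probe sets were higher in iron-deficient livers for 7 of these genes, all were lower for 1, Gaa, and both signs occurred for the other 7, which were Pgm2l1, Phka1, Ppp1r3d, Ppp1r1a, Csnk2a1, Akt1 and Akt2. These counts depended on the scaling: under quantile normalization 4 genes had all probe sets higher, 2 all lower and 9 neither, and without the Hamp probe set 3, 5 and 7. Both Gaa probe sets were higher and all 3 of Prkaa1 lower under both, while those of Ppp1r2 and Prkacb were all higher under both, as in the deposited values. The 3 probe sets of Prkar1a, the regulatory subunit of protein kinase A, differed by 18.7 ± 6.20, 9.33 ± 4.24 and 30.2 ± 11.0 millionths (SE, n = 4 per group) in the deposited values, and were not all higher under either quantile normalization. Those of Ppp1r2, the phosphatase inhibitor, differed by 23.3 ± 6.06, 503 ± 225 and 125 ± 120 millionths. For Phka1, the muscle form of the kinase subunit, the 2 probe sets differed by -7.04 ± 3.00 and 1.99 ± 2.91 millionths.

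Among all probe sets of these pathway genes the lowest p belonged to the dimmer of 2 for Ppp1r3d, a glycogen-targeting subunit of protein phosphatase 1, named here after its values were seen. It differed by 269 ± 43.0 millionths (SE, n = 4 per group), with groups that did not overlap and a limma adjusted p of 0.123, and by 280.1 and 213 millionths under quantile normalization with and without the Hamp probe set. The brighter Ppp1r3d probe set, which stands for the gene in the counts above, differed by -0.101 ± 1.06 millionths (limma adjusted p = 0.988). No pathway probe set passed an adjusted p of 0.05 in limma.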
